A study of Mus musculus with 16 samples.

Results

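The 7 genes described here are Slitrk6, Sfrp5, Dgkk, Sncg, Ache, Cd83 and BC035947, taken from the 21804 genes of the deposited count table by their Ensembl identifiers. Earlier results of the same data had placed them among the genes higher in thalamus than in cortex. They were thus chosen by their measured thalamus against cortex difference in these same libraries, which is therefore given library by library as a description, with no test. The genotype comparisons and the interaction of genotype with region did not choose them and were tested, on the same libraries.

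Tissue came from C57BL/6 mice aged 4 months, 4 of genotype Pdgfb ret/ret and 4 of genotype Pdgfb ret/wt, and each animal gave 1 cortex and 1 thalamus library. The retention allele, ret, yields a platelet-derived growth factor B that is not held close to the vessel wall, and the ret/wt controls carry 1 copy of it too, so no group here is free of the allele. In the ret/ret mice the thalamus sample was a set of calcifications found by their own fluorescence and cut out, in the ret/wt mice the matching place was taken, and cortex, a region not prone to calcify, was taken from both, per the labels. In thalamus, genotype, calcification and way of dissection therefore cannot be told apart. Libraries of one group came from separate animals, per the animal letters in the labels.

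The thalamus is a set of nuclei whose glutamatergic relay neurons project to cortex, bordered by the habenula above and the midbrain behind. Its neurons differ from those of cortex in the surface, secreted and signalling proteins they make, and such effector genes often mark single nuclei more sharply than the thalamus as a whole. Slitrk6 is a leucine-rich repeat membrane protein of the SLITRK family, whose members organise synapses through presynaptic receptor tyrosine phosphatases. Sfrp5 is secreted and binds Wnt ligands. Dgkk, an X-linked diacylglycerol kinase, turns the lipid messenger diacylglycerol into phosphatidic acid. Sncg encodes gamma-synuclein, a small presynaptic protein known from sensory and retinal ganglion neurons. Ache encodes acetylcholinesterase, which ends cholinergic transmission, and Cd83 an immunoglobulin-family membrane protein best known from mature dendritic cells. BC035947 is a protein-coding gene that still carries a clone name.

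Levels are given as CPM, the counts scaled to a common library total after edgeR's trimmed mean (TMM) correction. Library totals ran from 13415391 to 29135064 counts, so a floor of 3 counts stood at 0.103 to 0.224 CPM, which covers counting error only. Mitochondrial genes took 3.22% to 12.07% of the counts.

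The thalamus libraries differed in their markers of nuclei. The 10 markers of thalamic neurons summed to 1009, 1425, 4445 and 1289 CPM in ret/wt thalamus replicates 1 to 4. In ret/ret thalamus they summed to 816, 4534, 906 and 674 CPM, and in the 8 cortex libraries to between 326 and 488 CPM. All 10 markers were in the table and their sum was above every cortex library in all 8 thalamus libraries. Prkcd, a kinase that defines many first-order relay neurons, stood at 10.8, 101, 1155 and 180 CPM in ret/wt thalamus and at 31.7, 1141, 10.8 and 21.2 CPM in ret/ret thalamus. It was thus very high in ret/wt replicate 3 and ret/ret replicate 2. In ret/wt replicate 1 and ret/ret replicates 1, 3 and 4 it was inside its cortex range of 5.99 to 65.5 CPM. The relay factor Gbx2 had no reads in ret/wt thalamus replicate 1.

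The same 2 animals stood apart in other ways. Ddx3y, a Y-linked gene, reached 55.2 to 68.7 CPM in both libraries of ret/wt animal 3 and of ret/ret animal 2 and at most 3 counts in each of the other 12. Their cortex libraries also carried Cbln3, a cerebellar granule cell gene, at 416 and 1047 CPM, against 0.652 to 2.41 CPM in the other cortex libraries. The 8 cerebellar markers summed to 1894 and 4195 CPM there, against 17.3 to 53.7 CPM in the other 6. Another library, ret/ret thalamus replicate 4, held the midbrain dopamine markers: the 8 genes summed to 1191 CPM, against 220 to 397 CPM in the other thalamus libraries. In it the dopamine transporter Slc6a3 reached 234 CPM and tyrosine hydroxylase (Th) 150 CPM. What these differences contribute to the levels below was not tested.

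RefSeq promoter windows on GRCm38.p6 were matched by symbol for 5 of the 7 genes. The bases upstream of the start and outside exons are printed for Slitrk6 and Sncg, whose levels ran in opposite directions across the thalamus libraries, and for Sfrp5, the secreted member. All are on the minus strand and are written 5′ to 3′ along the gene, with each CG pair in capitals: Slitrk6 at chr14:110755205-110755399, Sncg at chr14:34374790-34374919 and Sfrp5 at chr19:42202253-42202502.
Slitrk6: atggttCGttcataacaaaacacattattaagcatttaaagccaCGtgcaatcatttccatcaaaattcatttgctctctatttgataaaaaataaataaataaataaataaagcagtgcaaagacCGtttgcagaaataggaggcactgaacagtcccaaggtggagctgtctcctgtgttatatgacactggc
Sncg: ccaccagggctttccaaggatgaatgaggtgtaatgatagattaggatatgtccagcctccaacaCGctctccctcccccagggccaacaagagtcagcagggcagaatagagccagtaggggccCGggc
Sfrp5: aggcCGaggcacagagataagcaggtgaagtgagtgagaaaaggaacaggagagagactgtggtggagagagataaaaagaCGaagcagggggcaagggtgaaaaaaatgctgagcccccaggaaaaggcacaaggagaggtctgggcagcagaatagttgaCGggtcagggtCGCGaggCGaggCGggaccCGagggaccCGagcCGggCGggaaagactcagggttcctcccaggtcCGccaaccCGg
The 195 bases of Slitrk6 hold 3 CG pairs, the 130 bases of Sncg hold 2 and the 250 bases of Sfrp5 hold 13.

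Over the whole 250 bases before the start, GC content was 37.2% for Slitrk6, 59.6% for Sfrp5, 61.6% for Sncg, 72.0% for Dgkk and 73.6% for Ache, beside a median of 52.4% over 32851 promoters. CG pairs numbered 3, 13, 7, 22 and 25 in the same order of genes, beside a median of 6. The 5 windows therefore span CG-poor and CG-rich sequence. Not all of it lies upstream of the annotated gene. The bases were cut at the first annotated exon of any gene or at the RefSeq span of the gene itself. The Ache window, chr5:137288004-137288303, is inside the gene, which begins at 137287519, and has 0 bases before that cut. For Slitrk6 and Sncg only 195 and 130 of the 250 bases come before it. The Sncg gene reaches into its window, to 34374789. The Slitrk6 gene ends at 110755149 in the GENCODE M21 annotation, so its 250 bases all lie upstream of that end. Next, 3 sequence motifs were searched on both strands of these 5 windows: CTTTGAT, read by the TCF/LEF factors of Wnt signalling, AGGTCA, the hexamer read by ROR nuclear receptors, and TAATTA, a homeodomain core. None of these letters occurred in the 5 windows. CTTTGAT occurs in 3.21% of all promoters in the table, AGGTCA in 14.02% and TAATTA in 4.84%.

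All 7 genes were higher in thalamus than in cortex of the same animal in 8 of 8 animals, and the thalamus and cortex libraries did not overlap in either genotype. Across all tested genes, 8.97% were higher without overlap in ret/wt and 8.18% in ret/ret, and 3.1% when all 8 thalamus libraries were set against all 8 cortex libraries. Because the contrast chose the genes, nothing is read from that count. Leaving out ret/wt animal 3, ret/ret animal 2 or ret/ret animal 4 cannot lower it. Groups that do not overlap stay apart in any subset of their libraries. In bulk tissue, more cells of a type and more RNA per cell cannot be told apart.

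**Figure D1:**
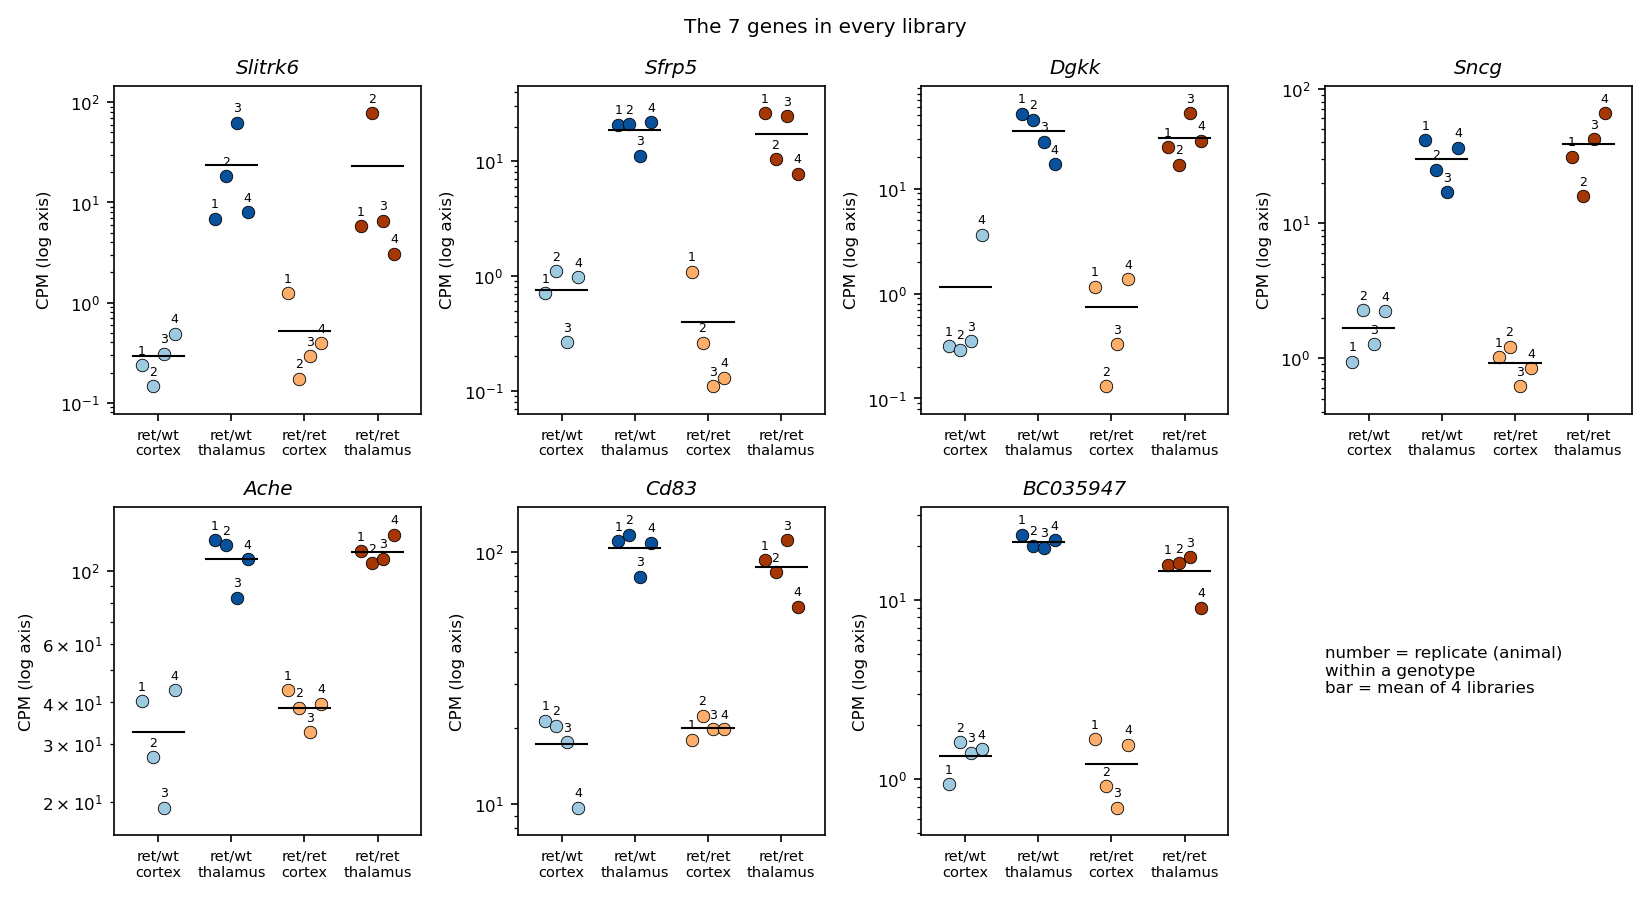
CPM of each of the 7 genes (log axis) in the 16 libraries, by group; each point is a library, its number the replicate, and the bar the mean of 4. All thalamus points lie above all cortex points of the same gene, and Slitrk6 spreads most, from 3.07 to 77.7 CPM within thalamus.

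Of the surface proteins, Slitrk6 (ENSMUSG00000045871, chr14:110748580-110755149, minus strand, GENCODE M21 on GRCm38, as for all genes below) was the most uneven. In ret/wt, replicates 1 to 4 held 6.87, 18.2, 62.7 and 7.95 CPM in thalamus and 0.235, 0.146, 0.308 and 0.489 CPM in cortex. In ret/ret they held 5.76, 77.7, 6.55 and 3.07 CPM in thalamus and 1.23, 0.174, 0.292 and 0.391 CPM in cortex. The same 2 libraries that led in Prkcd led in Slitrk6, and the cortex values rest on only 2 to 17 counts per library.

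Mean Slitrk6 was 81.3-fold higher in thalamus than in cortex in ret/wt and 44.5-fold higher in ret/ret. Without ret/wt animal 3 and ret/ret animal 2 these folds were 38.0 and 8.02. Per animal, the thalamus minus cortex difference in log2 CPM was 5.61 ± 1.66 in ret/wt and 4.42 ± 2.81 in ret/ret (SD, n = 4 each). In ret/ret the large size of the mean fold thus rests on animal 2, in ret/wt it stays the largest of the 7 genes without animal 3, and the direction is shared by all 8 animals.

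The relatives of Slitrk6 went the other way or stayed below the threshold. Across the list of 5 other Slitrk genes and their 3 receptor phosphatases, 0 of 8 were called higher in thalamus in either genotype (edgeR quasi-likelihood test, adjusted p under 0.05), where 12.6% of all tested genes were called in ret/wt (5.44% higher, 7.12% lower) and 9.5% in ret/ret (4.1% higher, 5.4% lower). No member of that list was higher at an unadjusted p under 0.05 or by DESeq2 either. Slitrk1 and Slitrk4 were lower in ret/ret thalamus, by log2 fold changes of -0.89 ± 0.23 (SE; adjusted p 0.0431) and -1.32 ± 0.30 (adjusted p 0.0254). In ret/wt edgeR called the receptor Ptprs, at -1.04 ± 0.28 (adjusted p 0.0371), while limma-voom called 0 of the 8 there. The median log2 fold change of the 8 was -0.61 in ret/wt and -0.73 in ret/ret, beside 0.03 and -0.02 over all genes.

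Cd83 (ENSMUSG00000015396, chr13:43784775-43803132, plus strand) was well above the floor in every library. Its thalamus libraries held 110, 117, 79.6 and 108 CPM in ret/wt and 92.3, 82.8, 111 and 60.4 CPM in ret/ret. Its cortex libraries held 21.3, 20.4, 17.5 and 9.66 CPM in ret/wt and 18.0, 22.4, 19.8 and 19.7 CPM in ret/ret. The lowest thalamus value, in ret/ret replicate 4, was 2.70 times the highest cortex value, and mean Cd83 was 6.01-fold higher in thalamus in ret/wt and 4.33-fold higher in ret/ret.

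The partners of Cd83 in its immune role were read beside it. On dendritic cells CD83 shields MHC class II and the co-stimulator CD86 from the ubiquitin ligase MARCH1. The list held MHC class II genes, co-stimulation genes and the ligases March1 and March8. Of those that could be tested, 0 of 7 were called between regions in ret/wt and 0 of 8 in ret/ret (edgeR), and DESeq2 called 0 in each. The 1 gene in each with an unadjusted p under 0.05 was a ligase. It was March1 in ret/wt, lower at -0.76 ± 0.33, and March8 in ret/ret, higher at 0.40 ± 0.17 (log2 ± SE; edgeR). At 12.6% and 9.5% of all genes called, lists of this size would hold about 1 call. The median log2 fold change of the list was 0.70 in ret/wt and 0.40 in ret/ret, beside 0.03 and -0.02 over all genes, and the MHC class II gene H2-Eb1 stood at 1.10 ± 0.52 in ret/wt (SE; edgeR adjusted p 0.208). Cd86 stood at 2.12, 5.05, 4.54 and 2.78 CPM in ret/wt thalamus and 2.35, 2.92, 2.29 and 2.55 CPM in ret/wt cortex, which overlap, and its log2 fold change was 0.53 ± 0.36 (SE; edgeR adjusted p 0.384). The mature dendritic cell receptor Ccr7, 1 of 6 dendritic and lymphoid markers, was at 0 to 0.262 CPM in all 16 libraries, at or near the floor. Of the 3 of these 6 that could be tested between regions, edgeR called 1 higher and 1 lower in ret/wt and 1 higher in ret/ret. DESeq2 called 3 in ret/wt, 2 of them higher, and 1 higher in ret/ret. Their sums overlapped in ret/wt, at 26.0 to 38.0 CPM in thalamus and 21.6 to 50.0 CPM in cortex. The 8 microglial markers summed to 268 to 329 CPM in ret/wt thalamus and 273 to 393 CPM in ret/wt cortex, which overlap, and 0 of 8 were called between regions in either genotype (edgeR; 1 of 8 at an unadjusted p under 0.05 in each, and by DESeq2 1 in ret/wt and 0 in ret/ret).

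Ache (ENSMUSG00000023328, chr5:137287519-137294466, plus strand), an enzyme held at the cell surface, had the smallest and steadiest step. In thalamus its libraries held 124, 119, 82.8 and 108 CPM in ret/wt and 114, 105, 108 and 128 CPM in ret/ret. In cortex they held 40.4, 27.3, 19.3 and 43.7 CPM in ret/wt and 43.6, 38.6, 32.5 and 39.7 CPM in ret/ret. Mean Ache was 3.32-fold higher in thalamus in ret/wt and 2.95-fold higher in ret/ret, and its highest thalamus library was 1.55 times its lowest, the narrowest spread of the 7.

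Prima1, which anchors acetylcholinesterase in the neuronal membrane, rose with it. Its log2 fold change between thalamus and cortex was 2.02 ± 0.49 in ret/wt (SE; edgeR adjusted p 0.0215) and 2.63 ± 0.48 in ret/ret (adjusted p 0.0113). It stood at 5.92, 3.33, 2.03 and 1.49 CPM in ret/wt thalamus, where 1.02 CPM was the highest cortex value. The ret/wt call of Prima1 was lost without ret/wt animal 3 (adjusted p 0.0535), with the animals as a block (adjusted p 0.0524) and without some single libraries. The muscle-type anchor Colq and the related butyrylcholinesterase Bche were not called, and Prima1 was the 1 gene of acetylcholine handling that edgeR called of 5 tested in each genotype. DESeq2 called 3 of the 5 higher in ret/wt and 2 in ret/ret, adding Slc5a7, the choline transporter, in both.

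The genes that make acetylcholine were scarce. Choline acetyltransferase (Chat) was at 5.35, 1.16, 0 and 0.323 CPM in ret/wt thalamus and at 0.533 to 1.86 CPM in ret/ret thalamus. Among the receptors, the muscarinic Chrm1 was lower in thalamus by log2 fold changes of -4.75 ± 0.45 in ret/wt (SE; edgeR adjusted p 0.000251) and -4.16 ± 0.44 in ret/ret (adjusted p 0.00212). Chrm4 was likewise lower, at -4.39 ± 0.37 (adjusted p 0.000128) and -3.30 ± 0.46 (adjusted p 0.00499). The nicotinic subunit Chrna3 was higher, at 3.80 ± 0.60 (adjusted p 0.00271) and 3.14 ± 0.64 (adjusted p 0.0179), the call of Chrna3 in ret/ret being lost with the animals as a block (adjusted p 0.0589). In all, 4 of 13 receptor genes were called higher and 3 lower in ret/wt, and 2 higher and 2 lower of 12 in ret/ret.

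Sfrp5 (ENSMUSG00000018822, chr19:42197971-42202252, minus strand), the secreted member, was near the floor in cortex. Its ret/wt thalamus libraries held 20.7, 21.1, 11.2 and 22.0 CPM, and its ret/ret thalamus libraries 26.2, 10.4, 24.8 and 7.80 CPM. Cortex held 0.706, 1.10, 0.264 and 0.977 CPM in ret/wt and 1.09, 0.262, 0.110 and 0.130 CPM in ret/ret. The 3 lowest thalamus libraries were the 2 with high Prkcd and the one with dopamine markers, and mean Sfrp5 was 24.6-fold higher in thalamus in ret/wt and 43.4-fold higher in ret/ret.

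The other extracellular Wnt antagonists were mixed in direction. Dkk3, a relative of the Dickkopf inhibitors, was lower in thalamus, at -2.36 ± 0.34 in ret/wt (log2 ± SE; edgeR adjusted p 0.00175) and -2.09 ± 0.49 in ret/ret (adjusted p 0.0290). In ret/wt Frzb was also lower, at -2.93 ± 0.41 (adjusted p 0.00148), and Sfrp2, at 1.59 ± 0.43 (adjusted p 0.0361), higher. Of 7 tested antagonists in each genotype, edgeR called 3 in ret/wt and 1 in ret/ret, and DESeq2 3 and 2. The estimates in ret/ret that edgeR did not call were -1.82 ± 0.69 for Frzb and 1.47 ± 0.55 for Sfrp2. The relatives Sfrp1 and Sfrp4 were not called by edgeR in either genotype. The ligands Wnt2 and Wnt10a were lower in both genotypes: Wnt2 at -2.01 ± 0.44 (adjusted p 0.0141) and -2.57 ± 0.61 (adjusted p 0.0307), and Wnt10a at -2.75 ± 0.61 (adjusted p 0.0145) and -2.31 ± 0.45 (adjusted p 0.0151). The ret/ret call of Wnt2 was lost with the animals as a block (adjusted p 0.105) and by limma-voom (0.0951), and the ret/wt call of Wnt10a by limma-voom (0.0658).

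The edgeR calls among Wnt receptors and targets were all higher and all in ret/wt. In that genotype 3 of 11 ligands (Wnt3, Wnt5b and Wnt9b), 2 of 12 receptors and co-receptors (Fzd8 and Fzd10) and 2 of 8 targets (Lef1 and Nkd1) were called higher. In ret/ret 0 of 12 receptors and 0 of 8 targets were called (edgeR; 3 and 2 at an unadjusted p under 0.05, and by DESeq2 3 receptors, 2 higher and Fzd3 lower, and 2 targets, both higher). Whether the 2 genotypes differ in this was tested by the interaction, in which 0 of 14 ligands, 0 of 12 receptors and 0 of 9 targets were called (edgeR, adjusted p under 0.05), nor at an unadjusted p under 0.05 or by DESeq2.

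Dgkk (ENSMUSG00000062393, chrX:6779306-6948363, plus strand), the lipid kinase, stood at 51.9, 45.4, 27.9 and 17.2 CPM in ret/wt thalamus and at 24.7, 16.9, 52.2 and 28.7 CPM in ret/ret thalamus. In cortex it stood at 0.314, 0.292, 0.352 and 3.64 CPM in ret/wt and at 1.16, 0.131, 0.329 and 1.37 CPM in ret/ret. One cortex library, ret/wt replicate 4, was 11.6 times the median of the other 3. That library also held the 9 choroid plexus markers at a sum of 1151 CPM, against 18.0 to 70.0 CPM in the other ret/wt cortex libraries. Its 5 hippocampal markers summed to 188 CPM, against 10.9 to 34.0 CPM in those libraries. Its 10 hypothalamic markers summed to 39.2 CPM, against 1.65 to 2.46 CPM, though their mean log2 level of -2.62 was near the -3.04 to -2.80 there. The part of these markers' tissues in its Dgkk level was not tested. Mean Dgkk was 31.0-fold higher in thalamus in ret/wt and 41.0-fold higher in ret/ret.

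The rest of the diacylglycerol kinase family leaned to cortex. Of 9 other kinases tested, 4 were lower and 0 higher in ret/ret thalamus, and 5 lower and 1 higher in ret/wt thalamus (edgeR, adjusted p under 0.05). The family median was -1.11 in ret/wt and -1.20 in ret/ret on the log2 scale. Dgkz was lower by -2.02 ± 0.31 in ret/wt (SE; adjusted p 0.00257) and -2.06 ± 0.27 in ret/ret (adjusted p 0.00406). Dgkd was lower by -1.11 ± 0.18 (adjusted p 0.00298) and -1.20 ± 0.19 (adjusted p 0.00656).

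Dgkg and Dgkh were also lower in both genotypes, and Dgkb in ret/wt. The kinase that edgeR called higher was Dgkq, in ret/wt, at 0.85 ± 0.20 (SE; adjusted p 0.0201). DESeq2 called 2 kinases higher in each genotype, Dgkq and Dgka, the latter at an edgeR estimate of 0.70 in both. Without ret/wt animal 3 the ret/wt calls of Dgkg and Dgkh were lost (adjusted p 0.113 and 0.0588), and with the animals as a block Dgkg was lost in ret/ret (adjusted p 0.0612) and in ret/wt (adjusted p 0.137). Plcb1, a phospholipase that generates diacylglycerol, was lower by -1.84 ± 0.30 in ret/wt (adjusted p 0.00299) and -1.63 ± 0.34 in ret/ret (adjusted p 0.0193), the 1 called by edgeR of 4 phospholipase C beta genes. In ret/wt DESeq2 also called Plcb4, which was higher, with an edgeR estimate of 1.46 ± 0.52.

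Sncg (ENSMUSG00000023064, chr14:34370274-34374789, minus strand), gamma-synuclein, stood at 41.3, 25.1, 17.0 and 36.5 CPM in ret/wt thalamus and at 31.1, 15.96, 42.0 and 65.5 CPM in ret/ret thalamus. Cortex held 0.942, 2.27, 1.27 and 2.23 CPM in ret/wt and 1.02, 1.22, 0.621 and 0.847 CPM in ret/ret. The 2 libraries highest in Slitrk6 were the 2 lowest in Sncg, and the library with dopamine markers was the highest. Mean Sncg was 17.9-fold higher in thalamus in ret/wt and 41.7-fold higher in ret/ret, or 31.2-fold in ret/ret without animal 4.

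Its relative beta-synuclein, Sncb, was not called between regions in either genotype, at 0.22 ± 0.21 in ret/wt (log2 ± SE; edgeR adjusted p 0.547) and 0.04 ± 0.18 in ret/ret (adjusted p 0.905).

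**Figure D2:**
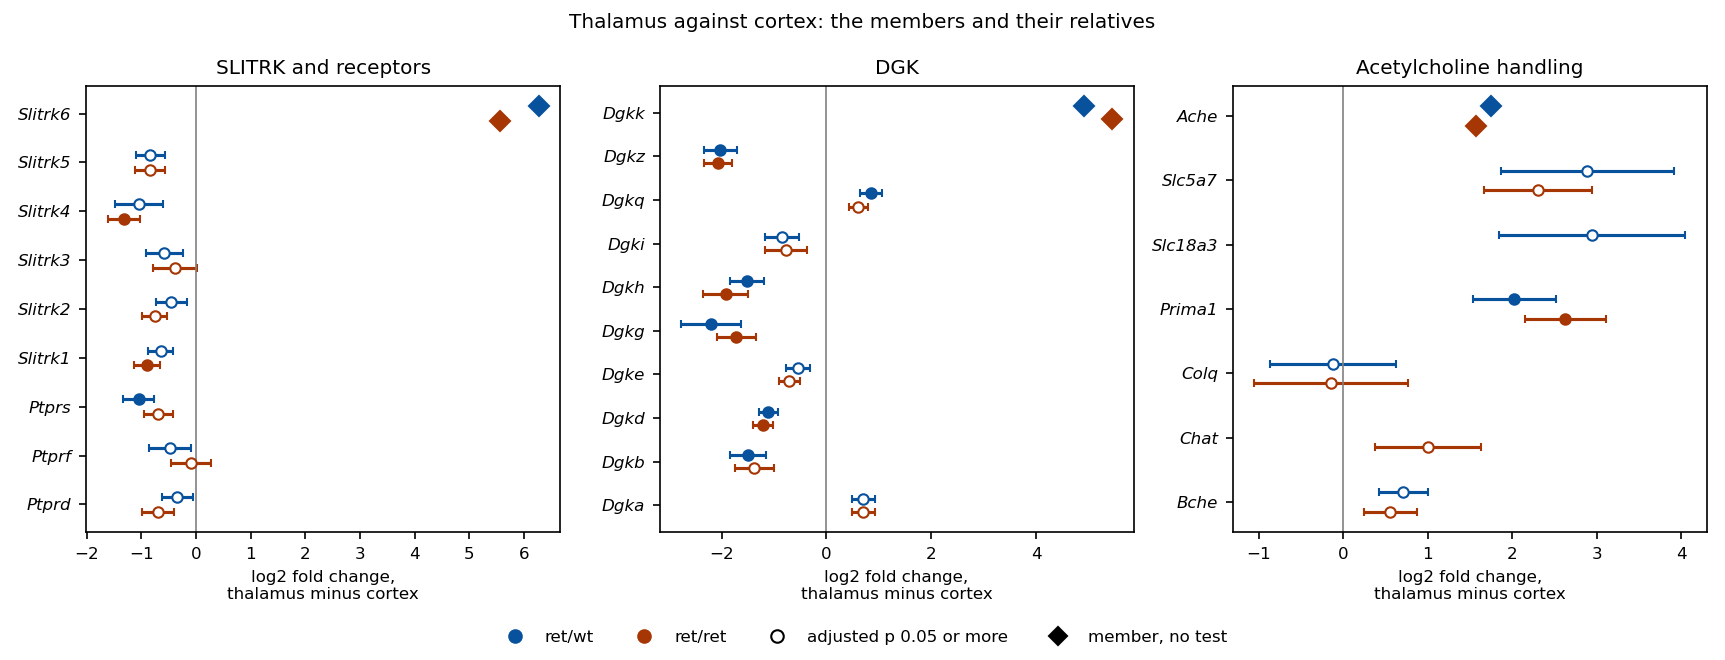
Log2 fold change of thalamus against cortex in ret/wt (blue) and ret/ret (brown) for Slitrk6, Dgkk and Ache (diamonds, no test) and for their relatives (circles with SE from edgeR, filled where the adjusted p was under 0.05); Chat and Slc18a3 were tested in 1 genotype each. The diamonds of Slitrk6 and Dgkk lie far to the right, while 4 kinases have filled circles left of 0 in both genotypes.

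BC035947 (ENSMUSG00000090486, chr1:78497026-78512158, minus strand) varied less across thalamus libraries than Slitrk6, Sfrp5, Dgkk and Sncg, the other members at a few CPM or less in cortex. It stood at 23.1, 20.1, 19.6 and 21.6 CPM in ret/wt thalamus and at 15.8, 16.1, 17.3 and 9.06 CPM in ret/ret thalamus. Cortex held 0.942, 1.61, 1.41 and 1.47 CPM in ret/wt and 1.67, 0.916, 0.694 and 1.56 CPM in ret/ret. Its 4 ret/wt thalamus libraries lay within 19.6 to 23.1 CPM although Prkcd in them differed many-fold, and mean BC035947 was 15.6-fold higher in thalamus in ret/wt and 12.03-fold higher in ret/ret. The gene overlaps Mogat1 on the other strand. The library kit was stranded, but whether the counting used the strand is not given in the sources used here, and Mogat1 itself had 5 to 34 counts in each thalamus library and at most 5 in each cortex library.

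**Figure D3:**
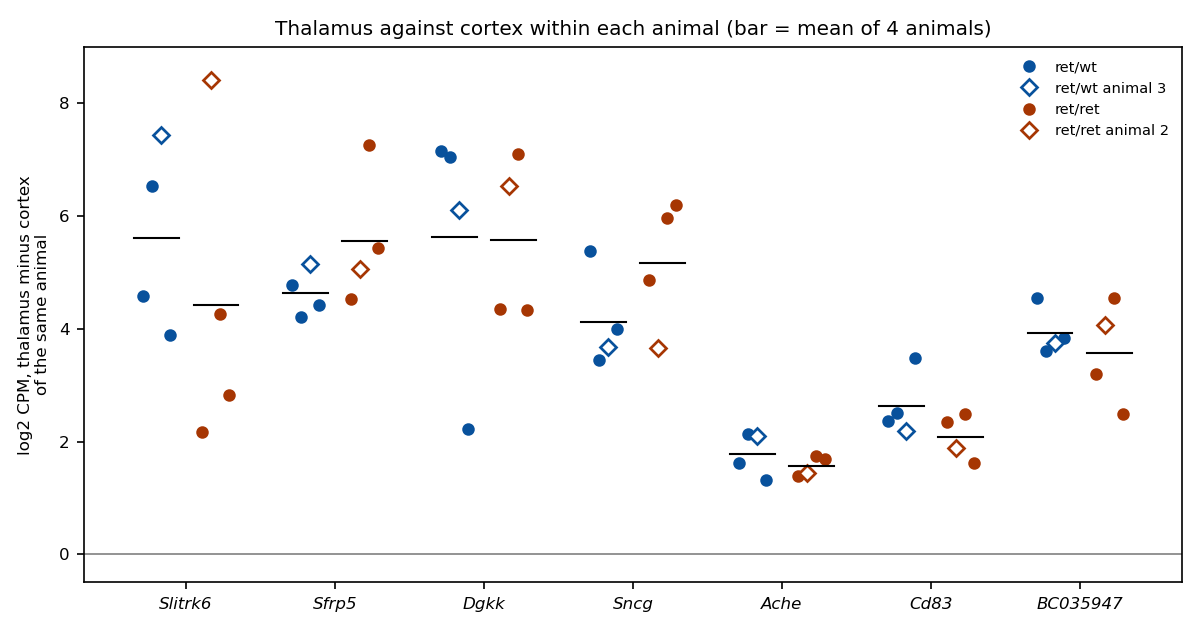
Thalamus minus cortex log2 CPM (prior count 1) within each animal for the 7 genes; filled circles are animals, open diamonds ret/wt animal 3 and ret/ret animal 2, and bars the mean of 4 animals. Every point is above 0, the lowest being 1.31 for Ache, and the open diamonds top the Slitrk6 points of their genotype.

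Per kilobase of exon, so that genes can be compared, the 7 fell into a higher and a lower set in thalamus. In ret/wt thalamus the mean CPM per kilobase was 40.3 ± 6.38 for Cd83, 35.2 ± 12.9 for Sncg and 23.5 ± 3.97 for Ache (SD, n = 4). Sfrp5 followed at 9.86 ± 2.67, BC035947 at 6.38 ± 0.487, Slitrk6 at 5.64 ± 6.21 and Dgkk at 4.98 ± 2.23. The spread of Sncg, 1 SD to each side, overlapped those of Cd83 and Ache, and those of BC035947, Slitrk6 and Dgkk overlapped each other. The spread of Sfrp5 overlapped that of Slitrk6 and, barely, that of Dgkk. In ret/ret thalamus Sncg led at 45.4 ± 24.5, then Cd83 at 33.7 ± 8.17 and Ache at 24.7 ± 2.20, with overlap between neighbours in that order, and the other 4 between 4.28 and 9.09.

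Across the 8 thalamus libraries the 7 genes did not move as one. The correlations that follow are of log2 CPM over 8 libraries that share the differences in markers and in depth named above, and they are given as descriptions. Slitrk6 and Sncg ran opposite, with Pearson's r of -0.95 and Spearman's rho of -0.86, and r of -0.88 over the 6 libraries without ret/wt replicate 3 and ret/ret replicate 2. Slitrk6 rose with the mean log2 level of the 10 thalamic neuron markers (r 0.92, rho 0.81, and r 0.67 over the 6), and Sncg fell with it (r -0.89, rho -0.86, and r -0.66 over the 6). Ache (r -0.75, rho -0.86, and r -0.50 over the 6) and Dgkk (r -0.61, rho -0.74, and r -0.49 over the 6) fell with it too. For Sfrp5, Cd83 and BC035947 r with it was -0.33, -0.10 and 0.26.

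Cd83 ran with Sfrp5 (r 0.88, rho 0.62) and with BC035947 (r 0.83, rho 0.60), and with r of 0.88 and 0.95 over the 6. Over the same 6 its r was 0.81 with Slitrk6 and -0.76 with Sncg, against -0.03 and -0.10 over all 8. Sfrp5, Cd83, BC035947 and Slitrk6 were lowest in ret/ret replicate 4, the library with dopamine markers, and Sncg and Ache were highest there. Against the mean log2 level of those 8 markers r was -0.62 for Sfrp5, -0.69 for Cd83 and -0.85 for BC035947. The rho of these was weaker, at -0.48, -0.29 and -0.48 in the same order. For Slitrk6 r was -0.32 (rho -0.33), for Dgkk -0.06 (rho -0.05), for Sncg 0.44 (rho 0.24) and for Ache 0.60 (rho 0.62). For Dgkk, r with the other 6 members lay between -0.33 and 0.41, with a rho of 0.60 for Sncg.

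**Figure D4:**
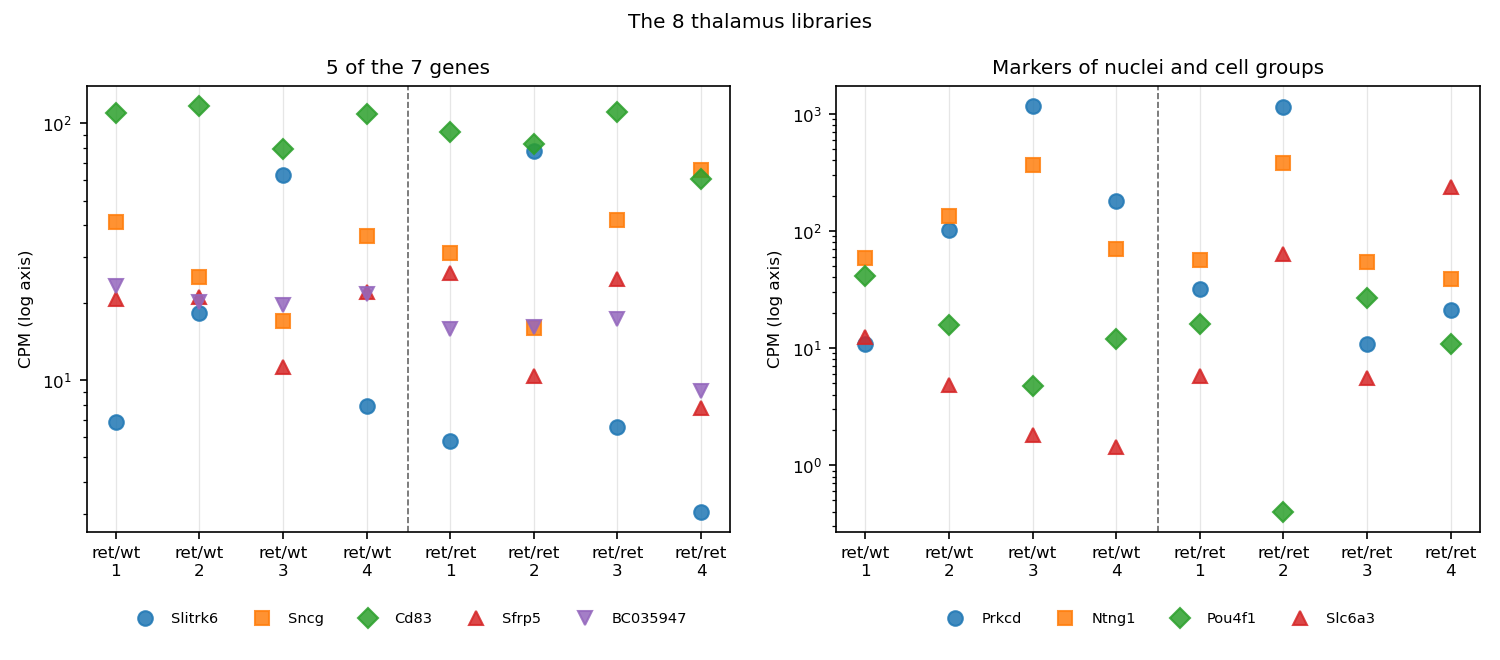
CPM (log axis) in the 8 thalamus libraries, replicates 1 to 4 of each genotype, for 5 of the 7 genes (left) and for 4 markers (right): Prkcd and Ntng1 of relay neurons, Pou4f1 of the medial habenula and Slc6a3 of dopamine neurons. Slitrk6 peaks with Prkcd and Ntng1 in ret/wt 3 and ret/ret 2, where Sncg is lowest, and Sncg peaks with Slc6a3 in ret/ret 4.

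A search over 12869 genes for the patterns most like each member over the 8 thalamus libraries gave different neighbours for each. The highest r among so many genes over 8 libraries is large even without any relation, so the neighbours are given as descriptions. For Slitrk6 they were Ntng1 (r 0.996, rho 0.98), Rora (r 0.987, rho 0.95) and Amotl1 (r 0.987, rho 0.95), and without the 2 libraries farthest from the median r was 0.98, 0.93 and 0.98. Ntng1 encodes netrin-G1, a membrane protein of thalamocortical axons, and Rora a nuclear receptor. For Dgkk they were Gli3 (r 0.98), Ptprt (r 0.97) and Cadm1 (r 0.97), which kept r of 0.97, 0.98 and 0.97.

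Sncg was followed by Esyt1 (r 0.97, then 0.93 without the 2 farthest libraries), Cabp7 (r 0.96, then 0.88) and Adat1 (r 0.95, then 0.86). Cd83 was followed by Dmac2 (r 0.98, then 0.98), the Wnt ligand gene Wnt2b (r 0.96, then 0.84) and Hs3st3b1 (r 0.96, then 0.81). Sfrp5 was followed by Cyp4f17 (r 0.98, then 0.95), the neuronal globin Ngb (r 0.97, then 0.95) and Pgm3 (r 0.96, then 0.90). Ache was followed by Zfp36l1 (r 0.95, then 0.73), Anks6 (r 0.95, then 0.73) and Ppp1r3b (r 0.94, then 0.85). BC035947 was followed by Nsun7 (r 0.97, then 0.91), Trib2 (r 0.96, then 0.67) and Wwox (r 0.93, then 0.74).

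Between genotypes, 0 of the 7 genes were called in thalamus (edgeR quasi-likelihood test, adjusted p under 0.05), where the calls were 0% of all 14767 genes tested. An unadjusted p under 0.05 was reached by 581 genes (3.93%), limma-voom called 0 genes and DESeq2 called 38, and no member was among any of these, though DESeq2 gave Slitrk6 no adjusted p. The log2 fold change of ret/ret against ret/wt was -0.01 ± 1.03 for Slitrk6, -0.08 ± 0.41 for Sfrp5, -0.18 ± 0.39 for Dgkk and 0.40 ± 0.41 for Sncg (SE). It was 0.10 ± 0.17 for Ache, -0.23 ± 0.21 for Cd83 and -0.51 ± 0.23 for BC035947. The errors of Slitrk6, Sfrp5, Dgkk and Sncg leave room for sizeable changes in either direction, whereas those of Ache and Cd83 are narrower. The microglial marker sums were 411 to 585 CPM in ret/ret thalamus, above the 268 to 329 CPM in ret/wt thalamus. Of these 8 genes, edgeR and limma-voom called 0 at an adjusted p under 0.05, and DESeq2 called 1, higher. At an unadjusted p under 0.05 edgeR had 6 of 8 higher, beside the Cd83 estimate of -0.23 ± 0.21. The part of the microglial markers in that estimate was not tested.

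BC035947 was the one member whose thalamus libraries did not overlap between genotypes. All 4 ret/ret values, 9.06 to 17.3 CPM, were below all 4 ret/wt values, 19.6 to 23.1 CPM, as was so for 1.03% of all tested genes in this direction and for 2.73% in either. The edgeR adjusted p was 0.9998 (unadjusted 0.0510), and the difference shrank to -0.34 without ret/ret replicate 4. The lowest adjusted p of BC035947 under any alternative was 0.574.

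In cortex 0 of 5 tested members were called, where 3 genes, 0.021% of 14288, were called, and none of the 5 had an unadjusted p under 0.05 or was among the 39 genes called by DESeq2. The ranges of all 7 overlapped between genotypes, where 2.32% of all tested genes did not. Slitrk6 and Dgkk were too low in cortex to enter the test. Sncg was at -0.84 ± 0.43 and Sfrp5 at -0.97 ± 0.78 on the log2 scale, and Ache, Cd83 and BC035947 at 0.26 ± 0.26, 0.23 ± 0.24 and -0.16 ± 0.41 (SE). For Sncg and Sfrp5 the mean cortex level rests on 2 to 41 counts per library.

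In the interaction, which asks whether the step from cortex to thalamus differs between genotypes, 0 of 7 members were called, beside 0% of 15286 genes. An unadjusted p under 0.05 was reached by 245 genes (1.6%), limma-voom called 0 genes and DESeq2 called 4, and no member was among any of these. The estimate largest relative to its error was that of Sncg, at 1.23 ± 0.59 (log2 ± SE; edgeR adjusted p 0.999999, unadjusted 0.0529), from a thalamus level that was higher and a cortex level that was lower in ret/ret. It fell to 0.85 without ret/ret thalamus replicate 4. The other 6 lay between -0.70 ± 1.52 for Slitrk6 and 0.91 ± 0.85 for Sfrp5.

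**Figure D5:**
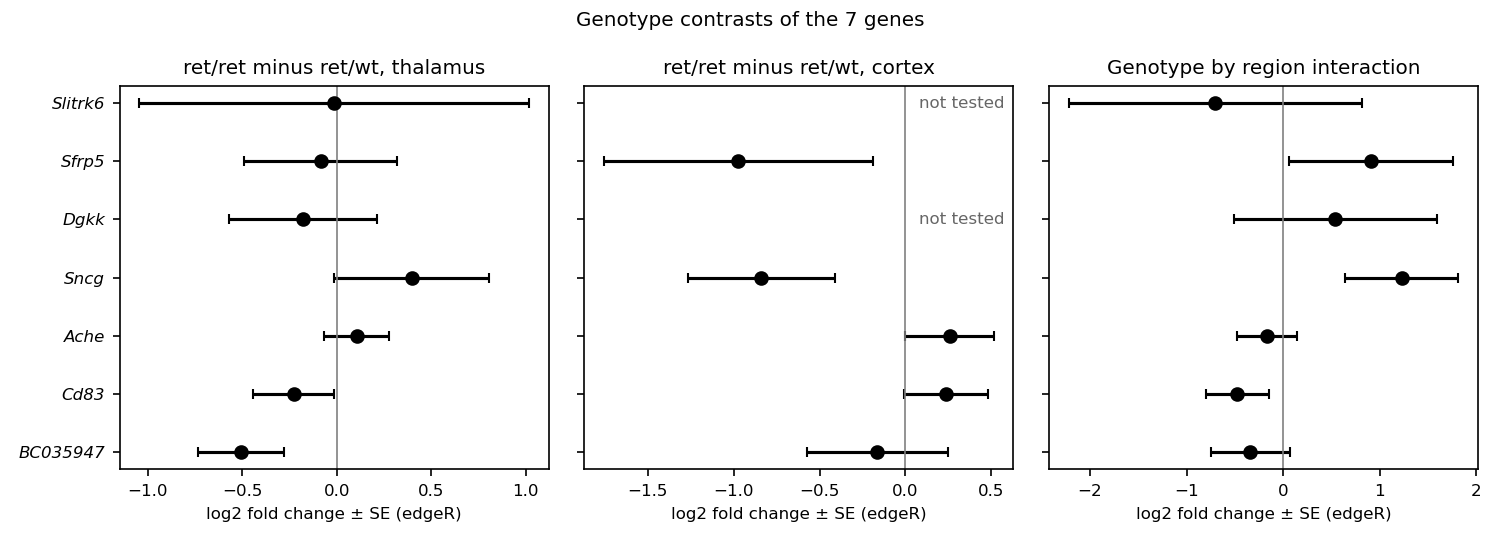
Log2 fold change with SE (edgeR) of the 7 genes for ret/ret against ret/wt in thalamus and in cortex and for the interaction of genotype with region; Slitrk6 and Dgkk were not tested in cortex. No adjusted p was under 0.05. The bars are widest for Slitrk6 and Dgkk in the interaction (SE 1.52 and 1.05) and narrowest for Ache in thalamus (SE 0.17).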

How the data were processed

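Expression was measured by sequencing of polyA-selected RNA with a stranded kit, per the labels' protocols, in 16 brain libraries of 8 mice. The authors deposited expected counts, estimated reads per Ensembl gene that need not be whole, for 21804 genes. The submitters' processing notes name kallisto 0.44.0 and GRCm38.p6, with no settings. All nonzero values (100.0%) were not whole, and they were rounded before fitting. Symbols and coordinates came from GENCODE M21, matched by identifier for 21581 genes (99.0%).

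Genes were kept by filterByExpr (minimum count 10, minimum total 15) in edgeR 4.0.16 (R 4.3.3), scaled by TMM and tested by its quasi-likelihood test, each 2-group comparison on its 8 libraries and the interaction on all 16, with Benjamini-Hochberg adjustment over all tested genes at 0.05. Log2 CPM used a prior count of 1. The pipeline was tested on simulated data. DESeq2 1.42.0, limma-voom (limma 3.58.1), library size alone, upper-quartile scaling, no filter, other prior counts, a replicate block, all libraries in one fit and leaving out libraries or animals were the alternatives.

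The members and gene lists were chosen with earlier results of these data known. The 7 members were all named. Of the pathway list genes, those called between regions in both genotypes or between genotypes were to be named, with members of the same protein family, and others were named where a count was small, after their values were seen. The rule covers the pathway lists: their genes called in both genotypes are given, except 1 that is not reported here, and none was called between genotypes. Genes of the cell type marker lists were not named by it and are given as sums or where a library stood apart. The 3 nearest genes were those with the highest r among genes with a mean log2 CPM of at least 1.

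Regions pair by the animal letters in the labels. The mean correlation of residuals between the 2 libraries of an animal was 0.0884 in ret/ret and 0.0608 in ret/wt. Between libraries of different animals it was -0.029 and -0.020. Single pairs ran from -0.004 to 0.239 in ret/ret and from -0.017 to 0.192 in ret/wt. In each genotype 1 of 4 pairs was above 0.1, and 1 thalamus library correlated best with the cortex library of its own animal. The pairing thus rests on the labels. Equal numbers in the 2 genotypes are different animals.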

Additional observations from a re-analysis of the deposited data

Results flagged for a closer look

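In 28 groups of 4 libraries (7 genes in 4 groups), 4 held a highest or lowest value whose gap to the nearest other library took up most of the range of the group, and chance alone gives about 1 in 20 groups. Slitrk6 in ret/ret thalamus replicate 2 stood high at 77.7 CPM, and this is one of the 2 thalamus libraries very high in Prkcd. Sfrp5 in ret/wt thalamus replicate 3, the other of those 2, stood low at 11.2 CPM. Sfrp5 in ret/ret cortex replicate 1 stood high at 1.09 CPM, and Slitrk6 was highest among the cortex libraries in the same one. Dgkk in ret/wt cortex replicate 4 stood high at 3.64 CPM, in the cortex library with the choroid plexus and hippocampal markers.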

How the results depend on the processing

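The numbers of genes called depended on the tool more than the values of the 7 genes did. DESeq2 called 38 genes for genotype in thalamus, 39 in cortex, 4 in the interaction and 2591 between regions in ret/ret, against 0, 3, 0 and 1398 with edgeR. One fit to all 16 libraries called 3 for genotype in thalamus and 7 in cortex. Without ret/wt animal 3 and ret/ret animal 2 the counts were 1 for genotype in cortex and 2564 between regions in ret/ret. Leaving out 1 library at a time gave 0 to 2 calls for genotype in cortex, 627 to 2007 between regions in ret/ret (lowest without cortex replicate 3) and 1178 to 1797 in ret/wt (lowest without cortex replicate 1). With the animals, or the shared numbers across genotypes, as a replicate block, 1177 genes were called between regions in ret/ret, 1487 in ret/wt, and 0 for genotype in thalamus, in cortex and in the interaction. Of the named genes called between regions in both genotypes, the block changed the calls of Chrna3, Wnt2, Dgkg and Prima1 given beside their results. With limma-voom the ret/ret call of Chrna3 (adjusted p 0.0596) was lost too, beside those given for Wnt2 and Wnt10a. Genes called in 1 genotype only, such as Slitrk1, Ptprs, Sfrp2 and Wnt9b, were not followed gene by gene under the block or without single libraries.

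Upper-quartile scaling moved the median of all genes to 0.10 in ret/ret and 0.13 in ret/wt, and the split of calls between regions from 603 higher and 795 lower to 819 and 662 in ret/ret, and from 785 and 1028 to 988 and 877 in ret/wt. Library size alone gave 977 and 844 in ret/wt. Among the named genes called in both genotypes, calls of Wnt2, Dkk3, Dgkh, Dgkg, Plcb1, Wnt10a and Chrna3 in ret/ret, and of Prima1 and Dgkg in ret/wt, were lost without some single libraries.

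None of the members was called for genotype or in the interaction under any alternative, and each stayed higher in thalamus under every one in both genotypes. The sign of several uncalled genotype estimates in thalamus turned: for Slitrk6 to 0.024 with library size alone and over a range of -2.19 to 1.11 without single libraries, for Sfrp5 (-0.37 to 0.16), for Dgkk (-0.55 to 0.045) and for Ache (-0.0035 to 0.16). It also turned for BC035947 in cortex (-0.36 to 0.037), in the interaction for Slitrk6 (-2.89 to 0.40), Dgkk (-1.31 to 1.06) and Ache (-0.33 to 0.017), and for Sncb between regions in ret/ret (-0.070 to 0.11, and -0.036 without the 2 animals). The cause was not tested. With 4 animals a group, and cortex levels of Slitrk6, Sfrp5 and Dgkk of 2 to 67 counts, small differences were not detectable at this depth. Dropping ret/ret animal 4 was added after its markers were seen.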
